A study of Homo sapiens with 9 samples.

Results

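The genes described here are 10 genes that ERK signalling switches on, most of which then restrain the pathway that induced them. They are DUSP4, DUSP5, DUSP6, SPRY2, SPRY4, SPRED1, SPRED2, EGR1, PHLDA1 and IER3, chosen by name from knowledge of the pathway and not by their values, out of 58214 genes with a matched transcript. All 10 were found. Poly(A) RNA was sequenced from K562, a human leukaemia line of erythroid character that carries the BCR-ABL1 fusion kinase. The 9 libraries fell into 3 groups of 3 biological replicates, all harvested on day 4 after a first siRNA transfection. SCR cells received a pool of non-targeting siRNAs, and the other groups received a pool against DHX34 or siRNAs against UPF1, so transfection was common to every group and no untransfected cells were compared. DHX34 is an RNA helicase and UPF1 is the central helicase of nonsense-mediated decay, which removes transcripts that carry a premature stop codon.

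In the RAS-ERK pathway, receptors or fusion kinases load RAS with GTP, RAS recruits RAF, and RAF and MEK pass phosphates on to the ERK kinases. ERK enters the nucleus and activates transcription factors such as ELK1, which act with SRF at CArG boxes and switch on immediate-early genes within minutes. The products include dual-specificity phosphatases that strip phosphate from ERK and Sprouty and SPRED proteins that act on RAS and RAF, so their transcripts are often read as a trace of past ERK activity. In K562 cells sustained ERK activation, as after phorbol ester, is known to drive a megakaryocytic change. Phosphorylation was not measured here.

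Library totals ran from 73478797 to 103625443 expected counts, the counts that salmon assigns to transcripts, summed here per gene. The targeted transcripts were reduced: DHX34 had a log2 fold change of -1.23 in its knockdown (edgeR adjusted p = 3.33e-07) and UPF1 one of -1.31 in its own (edgeR adjusted p = 2.41e-10), and neither was called in the other knockdown. The 9 markers of the erythroid K562 programme were all present. Their summed level was 8103 to 8556 TPM in SCR, 7764 to 7979 TPM in DHX34 knockdown and 4724 to 5173 TPM in UPF1 knockdown. Of 6 epithelial markers, 5 averaged below 0.1 TPM. The sixth, the adhesion gene EPCAM, averaged 72.3, 74.2 and 71.5 TPM in SCR, DHX34 knockdown and UPF1 knockdown, above each of the 10 genes, and its part in the results was not tested. In bulk RNA, fewer cells of a type and less RNA per cell cannot be told apart.

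Levels per length differed widely among the 10 genes. In SCR the order by TPM (a share of all transcripts, scaled for length) was IER3 at 19.7 ± 1.79 TPM (SD, n = 3), SPRED2 at 18.4 ± 1.299 TPM, EGR1 at 17.0 ± 2.44 TPM, SPRED1 at 7.82 ± 0.574 TPM, SPRY4 at 6.27 ± 0.560 TPM, SPRY2 at 3.47 ± 0.0805 TPM and DUSP5 at 1.77 ± 0.249 TPM. The first 3 overlapped in their library values, and the steps from EGR1 down to DUSP5 did not. PHLDA1 averaged 0.255 TPM, and DUSP6 and DUSP4 averaged 0.0425 and 0.0199 TPM. EGR1 held the third place in SCR and DHX34 knockdown and the fourth in UPF1 knockdown, where its 8.49 ± 0.777 TPM overlapped the 8.90 ± 0.212 TPM of SPRED1.

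A gene was called where its p in edgeR, adjusted by Benjamini-Hochberg over all genes tested, was 0.005 or less, the limit that the study used. In DHX34 knockdown against SCR, 0 of the 9 genes tested were called, beside 5.54% of all genes called higher and 4.86% called lower. DESeq2 called 2 of them lower, and 4 had an unadjusted p below 0.05. In UPF1 knockdown against SCR 3 of 9 fell (EGR1, SPRY4 and IER3) and 0 rose, beside 12.9% of all genes called lower and 12.4% called higher. In UPF1 knockdown against DHX34 knockdown 3 of 9 were lower (EGR1, SPRY4 and DUSP5) and 0 higher, beside 7.47% and 9.89% of all genes. On the TPM scale (limma, log2(TPM + 0.5)), which is not centred on the bulk of genes, 87.8%, 91.8% and 70.6% of all calls in these comparisons were higher, against 53.3%, 49.0% and 57.0% in edgeR, and removing the length trend gave 38.1%, 36.9% and 49.1%. EGR1 was called lower in UPF1 knockdown on each of these scales. The median log2 fold change of the 9 genes was 0.03, -0.36 and -0.32 in these comparisons, and that of all genes tested was 0.02, 0.02 and 0.01. Over the alternatives the median of these genes ran from -0.11 to 0.07 in DHX34 knockdown, from -0.39 to -0.11 in UPF1 knockdown and from -0.45 to -0.21 between the knockdowns. In DHX34 knockdown it was -0.07 without SCR replicate 2 and -0.05 without DHX34 knockdown replicate 2, so it had no settled sign. In UPF1 knockdown it was -0.20 without SCR replicate 1 and -0.17 without SCR replicate 3, where DUSP6 also passed the filter, and between the knockdowns it was -0.21 without DHX34 knockdown replicate 2. Both comparisons with SCR use the same SCR libraries. Groups did not overlap for 4 of the 9 genes in each comparison, beside 41.4%, 50.5% and 45.9% of all genes.

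**Figure D1:**
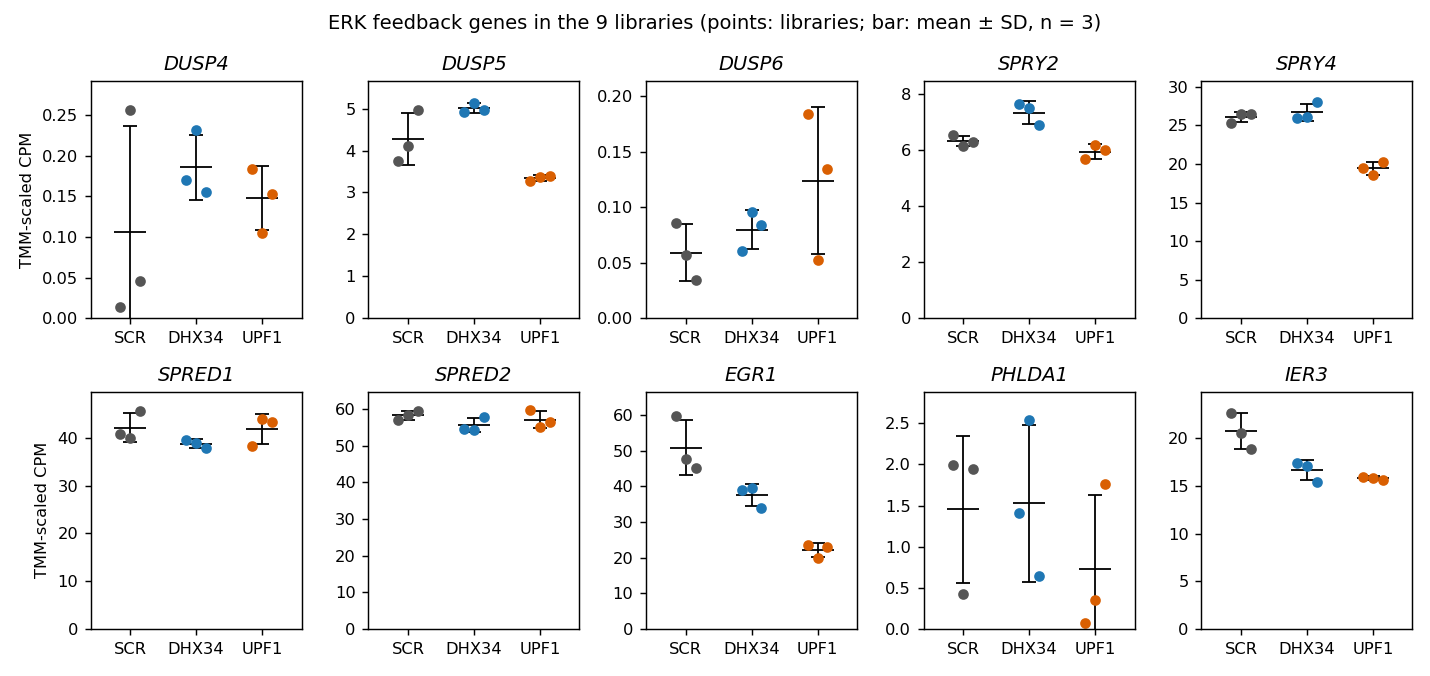
Level of each of the 10 genes in TMM-scaled CPM (counts scaled to the library total) on linear axes that start at 0, with a point for each library, a bar for the mean and whiskers for the SD (n = 3) in SCR, DHX34 knockdown and UPF1 knockdown. EGR1 lies highest in SCR and lowest in UPF1 knockdown without overlap, SPRED1 and SPRED2 lie close together in all groups, and PHLDA1, DUSP4 and DUSP6 scatter widely between libraries of one group.

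EGR1, a zinc-finger transcription factor and a classic immediate-early gene, had the largest log2 fold change of the genes called among the 10. It lies on chromosome 5 at 138465479 to 138469303 (GRCh38, + strand, ENSG00000120738) and its reads came from 1 annotated transcript of 3138 bases. Its promoter is shown because it carries the SRF-binding elements through which ERK is known to act. The window chr5:138465229-138465478 (GRCh38.p14, + strand, RefSeq) is the 250 bases before the start, with CArG boxes in capitals.
EGR1: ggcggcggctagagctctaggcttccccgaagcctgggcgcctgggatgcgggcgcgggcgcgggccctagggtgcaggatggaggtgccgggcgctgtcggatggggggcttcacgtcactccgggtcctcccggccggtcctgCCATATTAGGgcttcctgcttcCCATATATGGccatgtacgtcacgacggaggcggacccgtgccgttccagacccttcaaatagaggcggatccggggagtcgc
The capitals mark 2 CArG boxes, searched on both strands as CC, then 6 bases of A or T, then GG. Their first bases lie at -105 and -83 from the start. Of 35116 promoter windows, 1.16% held at least 1 CArG box and 0.031% held 2 or more. Of the 10 genes, 7 had an entry among these windows, and EGR1 was the one with a CArG box. Other motifs were searched too. CCGGAA lay in windows of PHLDA1 (-89) and SPRY2 (-142), beside 14.53% of all windows. GCGGGGGCG lay in a window of SPRY2 (-41), beside 4.72% of all windows. TGANTCA (N for any base) and TGACGTCA matched none of these genes. These are matches of letters, not measured binding.

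In CPM, counts scaled to the library total with TMM factors, EGR1 stood at 59.6, 47.7 and 45.3 CPM in the SCR libraries. It stood at 39.01, 39.6 and 34.0 CPM in DHX34 knockdown and at 23.5, 19.8 and 23.05 CPM in UPF1 knockdown. The 3 groups were fully separate, with UPF1 knockdown lowest and the first SCR library highest of all. In UPF1 knockdown EGR1 fell by 1.21 on the log2 scale (SE 0.0954, 95% interval -1.416 to -0.999, edgeR adjusted p = 1.70e-06). In DHX34 knockdown its log2 fold change was -0.44 (SE 0.0972, 95% interval -0.65 to -0.22), and the edgeR adjusted p of 0.00755 missed the limit. The difference between the knockdowns, tested directly, was -0.75 (SE 0.0754, edgeR adjusted p = 2.65e-05). Without the filter, in a fit of 29003 genes in place of 17004, the DHX34 value passed at an edgeR adjusted p of 5.03e-15. The reason for so low a value was not tested. The DHX34 value also passed with DESeq2 (adjusted p = 5.42e-06), with all 9 libraries in one edgeR fit (adjusted p = 0.00401) and with the length trend removed (edgeR adjusted p = 0.00301). It missed the limit with length-scaled counts (edgeR adjusted p = 0.0194), in limma on log2(TPM + 0.5) (limma adjusted p = 0.0822), with the other filter and scaling factors, and on leaving out any library (edgeR adjusted p from 0.0071 to 0.0185). The erythroid marker sum given above was also lowest in UPF1 knockdown, and its part in the EGR1 result was not tested.

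IER3, an immediate-early gene whose product affects survival signalling and ERK dephosphorylation, lies in the MHC region of chromosome 6 at 30743199 to 30744548 (GRCh38, - strand, ENSG00000137331). Any copies on alternative haplotypes were not summed with it. It stood at 22.7, 20.6 and 18.9 CPM in SCR, at 17.4, 17.1 and 15.5 CPM in DHX34 knockdown and at 16.0, 15.9 and 15.6 CPM in UPF1 knockdown. Every knockdown library lay below every SCR library, and the knockdowns overlapped each other. IER3 fell by 0.39 in UPF1 knockdown (SE 0.0661, edgeR adjusted p = 4.90e-04). Its log2 fold change in DHX34 knockdown was -0.31 (SE 0.0789, edgeR adjusted p = 0.0138). The direct difference was -0.06 with a 95% interval from -0.20 to 0.07. In limma on log2(TPM + 0.5) the UPF1 change was -0.19 (limma adjusted p = 0.0585) and the call was lost. That TPM scale raised the median of all genes by 0.143 in DHX34 knockdown and by 0.189 in UPF1 knockdown.

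PHLDA1, an ERK-induced gene of the pleckstrin homology-like family, ranged from 0.0755 to 2.54 CPM with no separation of groups. Its log2 fold changes were 0.06 in DHX34 knockdown (SE 0.529) and -0.96 in UPF1 knockdown (SE 0.745), with edgeR adjusted p of 0.948 and 0.343. The counts came from 2 transcripts. ENST00000266671 held 5.7 to 62.3 expected counts in every library, while ENST00000602540 held 98.9 to 149 expected counts in 5 libraries and 0 in the other 4. Every group had at least 1 library of each kind, and the 4 libraries at 0 were the 4 with the lowest PHLDA1 level.

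The phosphatases DUSP4, DUSP5 and DUSP6 remove phosphate from ERK, DUSP6 in the cytoplasm and DUSP4 and DUSP5 in the nucleus. DUSP5 (chromosome 10, 110497907 to 110511533, GRCh38, + strand, ENSG00000138166) stood at 3.74, 4.12 and 4.97 CPM in SCR, at 4.93, 5.15 and 4.96 CPM in DHX34 knockdown and at 3.27, 3.37 and 3.40 CPM in UPF1 knockdown. In CPM, UPF1 knockdown lay below both other groups in every library, and the SCR libraries spread the most. In TPM, UPF1 knockdown overlapped SCR, at 1.55 to 1.61 TPM against 1.53 to 2.03 TPM. DUSP5 was lower in UPF1 than in DHX34 knockdown by -0.57 (SE 0.0962, edgeR adjusted p = 0.00103). Its log2 fold change against SCR was 0.23 in DHX34 knockdown (edgeR adjusted p = 0.200) and -0.36 in UPF1 knockdown (edgeR adjusted p = 0.0365). The direct call was lost, with edgeR adjusted p of 0.00554, 0.00591, 0.00585 and 0.00507, on leaving out DHX34 knockdown replicate 2 or UPF1 knockdown replicate 1, 2 or 3.

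DUSP4 and DUSP6 were near the floor of detection. DUSP4 (ENSG00000120875) had 1, 18 and 4 expected counts in SCR, 17, 17 and 13 in DHX34 knockdown and 14, 10 and 16 in UPF1 knockdown. It passed the filter on low counts only thinly, the knockdown libraries helping it to pass, and its log2 fold changes of 0.83 (SE 0.751) and 0.49 (SE 0.763) had intervals that spanned 0. DUSP6 (ENSG00000139318), often used as a readout of ERK activity, had 6, 4 and 3 expected counts in SCR, 6, 7 and 7 in DHX34 knockdown and 14, 5 and 14 in UPF1 knockdown. It did not pass the filter in any of the comparisons, and no difference was detectable at this depth.

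Sprouty proteins act below receptors to limit RAS and RAF activation. SPRY4 (chromosome 5, 142310427 to 142326455, GRCh38, - strand, ENSG00000187678) stood at 25.4, 26.5 and 26.5 CPM in SCR, at 25.96, 26.1 and 28.0 CPM in DHX34 knockdown and at 19.4, 18.6 and 20.3 CPM in UPF1 knockdown. In CPM the UPF1 libraries lay below all others, and SCR and DHX34 knockdown overlapped. In TPM, UPF1 knockdown overlapped SCR, at 5.54 to 6.15 TPM against 5.70 to 6.82 TPM. SPRY4 fell by 0.43 in UPF1 knockdown (SE 0.0497, 95% interval -0.54 to -0.32, edgeR adjusted p = 2.70e-05), and its change in DHX34 knockdown was 0.03 with a 95% interval from -0.08 to 0.14. The direct difference was -0.45 (SE 0.0543, edgeR adjusted p = 1.08e-04). With counts scaled for transcript length the UPF1 change was -0.33 and no longer passed (edgeR adjusted p = 0.00825), and in limma on log2(TPM + 0.5) it was -0.11 (limma adjusted p = 0.325).

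The transcripts behind SPRY4 differed in length, which bears on these values. ENST00000344120, of 4938 bases, held 77.2%, 65.2% and 73.7% of the TPM of SPRY4 in SCR, 64.5%, 60.8% and 63.1% in DHX34 knockdown and 62.5%, 65.7% and 58.3% in UPF1 knockdown. ENST00000434127, of 2379 bases, held 23.5% ± 5.03 of it (SD, n = 3) in SCR, 31.3% ± 3.73 in DHX34 knockdown and 30.7% ± 3.81 in UPF1 knockdown. The share of the longer form was lower in all 3 DHX34 libraries than in any SCR library, and its share in UPF1 knockdown overlapped SCR. Its level was not lower, at a mean of 4.75 TPM in DHX34 knockdown and 4.49 TPM in SCR. The shorter form averaged 2.36 TPM in DHX34 knockdown and 1.49 TPM in SCR. These shares and levels were not tested, and they depend on how salmon divides reads between forms.

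**Figure D2:**
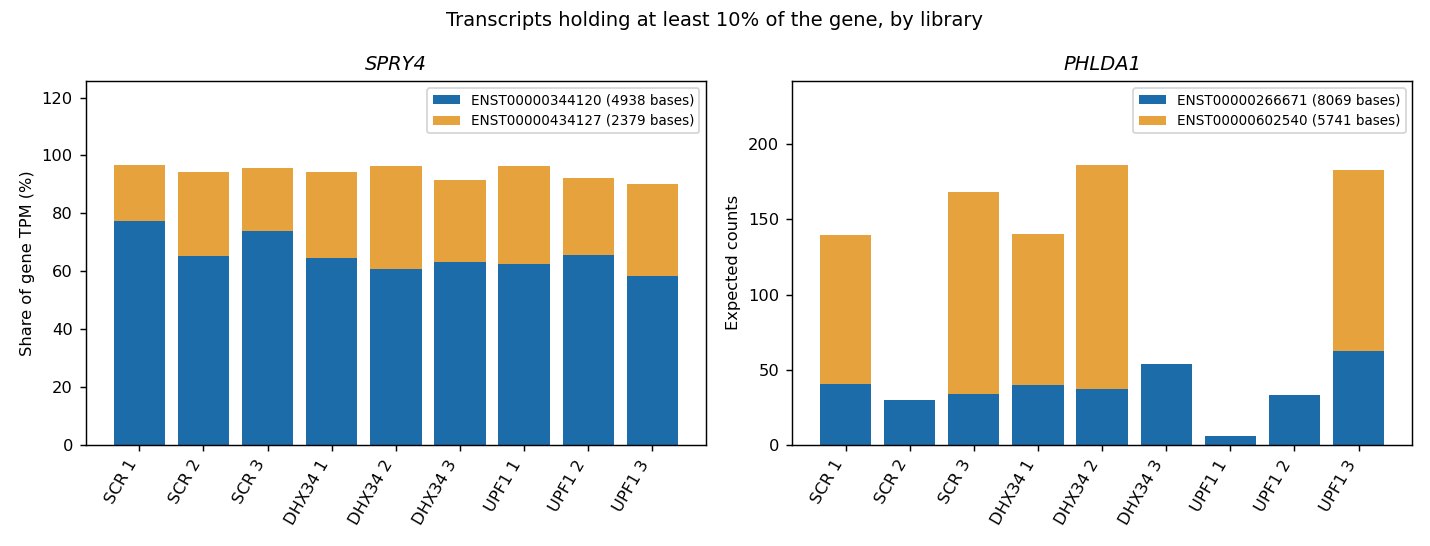
Left, share of the TPM of SPRY4 (%) in its main transcripts, and right, expected counts of the PHLDA1 transcripts, stacked for each of the 9 libraries. The longer SPRY4 form takes 58.3% to 77.2% of the gene, and the PHLDA1 form ENST00000602540 is at 0 in 4 libraries.

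SPRY2 (chromosome 13, 80335976 to 80341126, GRCh38, - strand, ENSG00000136158) stood at 6.54, 6.16 and 6.30 CPM in SCR, at 7.64, 7.51 and 6.90 CPM in DHX34 knockdown and at 5.68, 6.19 and 6.002 CPM in UPF1 knockdown. DHX34 knockdown lay above both other groups in every library. No test called it: the log2 fold change was 0.22 in DHX34 knockdown (edgeR adjusted p = 0.0971), -0.09 in UPF1 knockdown (edgeR adjusted p = 0.431) and -0.29 between the knockdowns (edgeR adjusted p = 0.0194).

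SPRED1 and SPRED2, membrane-bound relatives of Sprouty that work with neurofibromin on RAS, were not called in any comparison. SPRED1 (ENSG00000166068) stood at 40.9, 39.97 and 45.6 CPM in SCR, at 39.6, 39.01 and 37.9 CPM in DHX34 knockdown and at 38.3, 44.1 and 43.4 CPM in UPF1 knockdown. Its DHX34 libraries all lay below its SCR libraries (log2 fold change -0.12, edgeR adjusted p = 0.136). SPRED2 (ENSG00000198369) ranged from 54.3 to 59.6 CPM over the 9 libraries. The 95% intervals of its log2 fold change ran from -0.15 to 0.02 in DHX34 knockdown and from -0.12 to 0.05 in UPF1 knockdown. Its transcript annotated as a target of nonsense-mediated decay, ENST00000426832, reached at most 5.58 expected counts in a library and could not be compared.

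**Figure D3:**
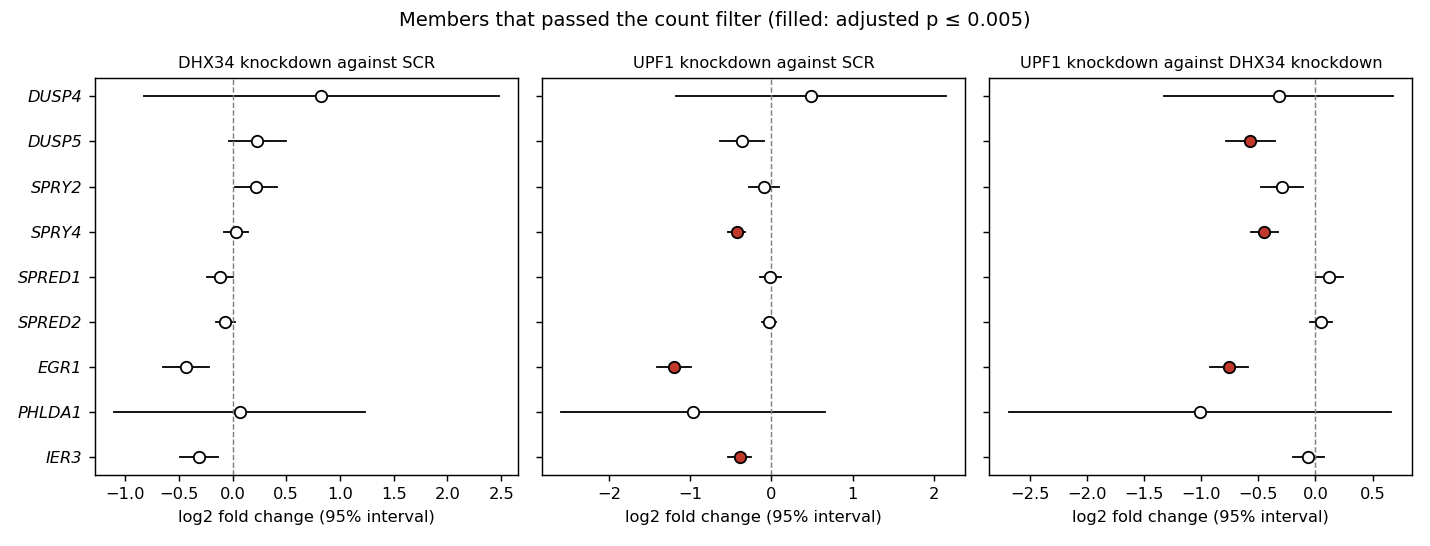
Log2 fold change of the 9 genes that passed the filter, with 95% intervals, for each knockdown against SCR and for UPF1 against DHX34 knockdown, with filled points at an edgeR adjusted p of at most 0.005. EGR1 is at -0.44, -1.21 and -0.75 from left to right, and the intervals of DUSP4 and PHLDA1 are the widest.

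Of 10 further genes of the same families, phosphatases, Sprouty and SPRED genes, 9 were tested. Among all genes tested, 5.54% rose and 4.86% fell in DHX34 knockdown, and 12.4% rose and 12.9% fell in UPF1 knockdown. In DHX34 knockdown 1 rose and 0 fell: DUSP9, an ERK phosphatase, from 11.4 ± 0.358 to 15.4 ± 1.53 CPM (n = 3, log2 fold change 0.43, edgeR adjusted p = 0.00359). In UPF1 knockdown 2 rose and 0 fell: DUSP8 (0.65, edgeR adjusted p = 0.00321) and DUSP16 (0.22, edgeR adjusted p = 0.00291), both known mainly for acting on stress kinases. These calls were close to the limit. DUSP9 lost its call on leaving out any library but DHX34 knockdown replicate 3 (edgeR adjusted p up to 0.0172) and with length-scaled counts (edgeR adjusted p = 0.0223). DUSP8 and DUSP16 lost theirs with the replicate block (edgeR adjusted p = 0.00675 and 0.00503), with length-scaled counts, in one fit of all 9 libraries, and on leaving out any library but SCR replicate 2 for DUSP8 and SCR replicate 3 for DUSP16. DUSP1, a broad MAP kinase phosphatase, had values from 15.04 to 16.7 CPM over all libraries and was not called. The list's median was 0.07 in DHX34 knockdown and 0.14 in UPF1 knockdown.

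All 24 genes of the RAS-ERK cascade were tested against SCR. In DHX34 knockdown 1 rose and 2 fell, beside 5.54% and 4.86% of all genes called higher and lower. In UPF1 knockdown 4 rose and 2 fell, beside 12.4% and 12.9% of all genes. HRAS fell by 0.24 in DHX34 knockdown (edgeR adjusted p = 0.00252) and was higher in UPF1 than in DHX34 knockdown by 0.41 (edgeR adjusted p = 3.10e-05). Length-scaled counts narrowly ended this direct call (edgeR adjusted p = 0.00502). In UPF1 knockdown GAB2 (0.23, an adaptor) and SOS2 (0.22, an exchange factor for RAS) rose, with edgeR adjusted p of 0.00106 and 0.00374. RPS6KA3, the gene of the ERK-activated kinase RSK2, fell by 0.89 (edgeR adjusted p = 0.00218), and its SCR libraries spread from 31.3 to 62.0 CPM. The RPS6KA3 call was lost in DESeq2, with the replicate block (edgeR adjusted p = 0.00734), with length-scaled counts (edgeR adjusted p = 0.103) and on leaving out SCR or UPF1 knockdown replicate 1 or 3, and on the TPM scale the groups overlapped, at 10.2 to 14.5 TPM in SCR and 10.9 to 12.4 TPM in UPF1 knockdown. The other gene counted as lower in each knockdown was RPS6KA2, at under 1 CPM. It passed the filter through the SCR libraries, which favoured a lower value in the knockdowns, and with length-scaled counts it was not called (edgeR adjusted p = 0.996 and 0.965). The DHX34 call of HRAS was lost with length-scaled counts (edgeR adjusted p = 0.0208) and on leaving out any library but DHX34 knockdown replicate 3, and GAB2 and SOS2 also lost theirs with length-scaled counts (edgeR adjusted p = 0.00661 and 0.0440). Leaving out SCR replicate 1 or 3 or UPF1 knockdown replicate 2 or 3 also ended the GAB2 call, and leaving out any library but SCR replicate 2 ended that of SOS2. Between the knockdowns 5 of 23 tested were higher in UPF1 knockdown and 2 lower, beside 9.89% and 7.47% of all genes. The list's median was -0.02 in DHX34 knockdown and 0.00 in UPF1 knockdown.

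Other genes that ERK signalling can induce moved in both directions. Of 17 tested of 20, 2 rose and 2 fell in DHX34 knockdown (median -0.04), and 4 rose and 3 fell in UPF1 knockdown (median -0.07). The shares of all genes that rose and fell were 5.54% and 4.86% in DHX34 knockdown and 12.4% and 12.9% in UPF1 knockdown. ATF3, a stress-responsive transcription factor, stood at 17.7, 15.7 and 16.4 CPM in SCR and at 34.2, 34.7 and 33.6 CPM in UPF1 knockdown, a rise of 1.04 (edgeR adjusted p = 4.53e-08). The transcription factors KLF6 (0.45), JUN (0.43) and ETV5 (0.37) also rose there, while JUNB (-0.46), ETV4 (-0.25) and IER2 (-0.17) fell, with edgeR adjusted p from 1.18e-06 to 3.03e-04. In limma on log2(TPM + 0.5) the ETV4 and IER2 calls were lost (limma adjusted p = 0.673 and 0.991). IER2 averaged 104.21 TPM in SCR and 104.19 TPM in UPF1 knockdown. In DHX34 knockdown KLF6 (-0.29) and ETV5 (-0.31) fell and the sphingosine kinase gene SPHK1 (0.21) rose, with edgeR adjusted p from 0.00134 to 0.00376. The DHX34 calls were close to the limit. KLF6, ETV5 and SPHK1 lost theirs with length-scaled counts (edgeR adjusted p = 0.0121, 0.0205 and 0.0448) and on leaving out 1 library, which was any library for ETV5, any but DHX34 knockdown replicate 3 for SPHK1, and SCR replicate 1 or 3 or DHX34 knockdown replicate 1 or 2 for KLF6. The UPF1 call of ETV5 was lost with length-scaled counts (edgeR adjusted p = 0.0562). The direct differences of KLF6 (0.75) and ETV5 (0.70) passed in every alternative (edgeR adjusted p = 6.66e-07 and 4.73e-06 as fitted). FOS, another classic immediate-early gene, stood at 0.835 to 2.08 CPM over the 9 libraries and was not called.

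Of 9 nuclear factors that receive the signal, 8 were tested. Across all genes, 4.86% were called lower in DHX34 knockdown and 12.9% in UPF1 knockdown. ELK1, a direct ERK substrate that binds with SRF at CArG boxes, fell by 0.38 in DHX34 knockdown (edgeR adjusted p = 2.15e-04) and by 0.36 in UPF1 knockdown (edgeR adjusted p = 3.92e-06). In limma on log2(TPM + 0.5) both ELK1 calls were lost (limma adjusted p = 0.00873 and 0.0113). ERF, a repressor that ERK expels from the nucleus, fell by 0.26 in UPF1 knockdown (edgeR adjusted p = 5.50e-05). The ERF call was lost with length-scaled counts (edgeR adjusted p = 0.0334) and in limma on log2(TPM + 0.5) (limma adjusted p = 0.774). The list's median was -0.06 in both knockdowns, and 0 of 8 were called between them, beside 17.4% of all genes.

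**Figure D4:**
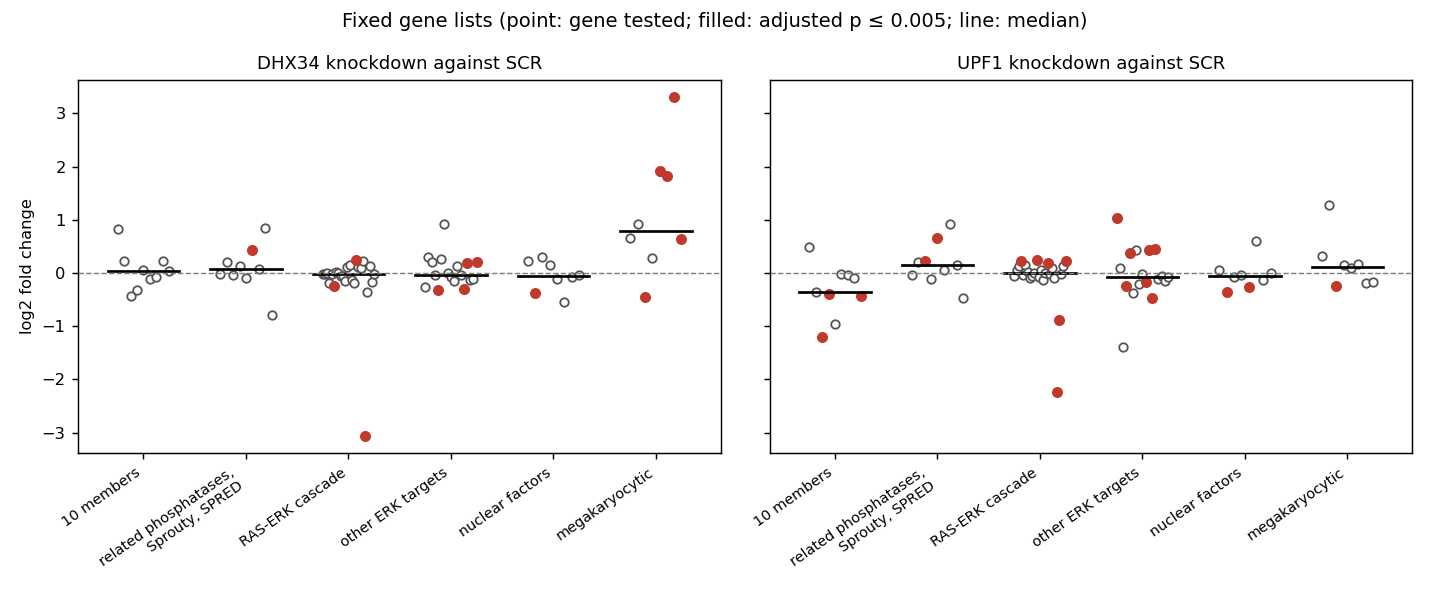
Log2 fold change of every tested gene of each list (points, filled at an edgeR adjusted p of at most 0.005) with the list's median as a line, for DHX34 knockdown and UPF1 knockdown against SCR. The 10-gene set has a median of 0.03 on the left and -0.36 on the right, and the megakaryocytic list has medians of 0.78 and 0.12.

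Megakaryocytic genes were set beside the ERK genes because sustained ERK activity is known to drive that change in this line. Of 8 tested of 13, 4 rose and 1 fell in DHX34 knockdown, beside 5.54% and 4.86% of all genes. All 5 calls held in every alternative in which the gene was tested. The median was 0.78, with 1.31 without SCR replicate 1 and 0.61 without SCR replicate 2. THBS1, the platelet matrix protein thrombospondin, stood at 1.01, 1.14 and 1.55 CPM in SCR and at 11.8, 12.0 and 13.3 CPM in DHX34 knockdown (log2 fold change 3.31, edgeR adjusted p = 3.33e-07). ITGA2B and ITGB3, which encode the platelet fibrinogen receptor, rose by 1.91 and 1.83 (edgeR adjusted p = 4.95e-07 and 1.07e-04), ITGB3 from a level below 1 CPM, and the platelet tubulin gene TUBB1 rose by 0.64 (edgeR adjusted p = 2.79e-04). GP1BB, part of the receptor for von Willebrand factor, fell by 0.45 (edgeR adjusted p = 2.49e-05). In UPF1 knockdown 0 rose and 1 fell, beside 12.4% and 12.9% of all genes. GP1BB fell there by 0.25 (edgeR adjusted p = 9.01e-04), and the list's median was 0.12. The UPF1 call of GP1BB was lost without SCR replicate 2 and in limma on log2(TPM + 0.5) (limma adjusted p = 0.310). In the same DHX34 libraries, in CPM, EGR1, IER3 and SPRED1 lay below every SCR library and SPRY2 above every SCR library. None of them was called, and groups did not overlap for 41.4% of all genes tested. In TPM, IER3 and SPRED1 overlapped between DHX34 knockdown and SCR, while EGR1 and SPRY2 did not.

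The genes whose levels followed EGR1 most closely over the 9 libraries, among 10058 genes of at least 5 CPM, were HBG2 (Pearson r = 0.986), COPS6 (0.986), UBAC1 (0.985), FKBP3 (0.985) and HOXB4 (0.983). HBG2, a fetal globin gene, shares reads with its near-identical copy HBG1, so its value is uncertain. For SPRED2, the member with the highest mean TPM, the closest were NOPCHAP1 (0.909), GPR137 (0.885), FUBP3 (0.871), NFXL1 (0.868) and VAC14 (0.867). The libraries form 3 groups, so these values mostly follow differences between group means and are descriptions of likeness.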

How the data were processed

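Poly(A) RNA of K562 cells was sequenced in 9 libraries, 3 biological replicates each of SCR, DHX34 knockdown and UPF1 knockdown, grouped by their labels. The authors quantified reads with salmon 1.5.2 with correction for GC bias on the Ensembl release 93 transcripts of GRCh38. Their deposited tables give for each transcript an expected count, not normalized, and a TPM scaled for length and depth. Deposited tables of the authors' own comparisons (sleuth p-values, q-values and effects, and SUPPA2 differences in splicing with p-values) were not used.

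Transcripts were joined to GENCODE 44, which matched 97.9% of transcripts and 98.1% of counts. Expected counts were summed per gene, rounded and tested for each pair of groups, 6 libraries a fit, with edgeR 4.0.16 (R 4.3.3) by quasi-likelihood F tests with TMM factors, filterByExpr at a minimum count of 10 and Benjamini-Hochberg adjustment over all genes tested. The limit was 0.005. CPM values were scaled by TMM factors over all 9 libraries. On the scale of each pair of groups alone, SPRY2 also did not overlap in UPF1 knockdown against SCR (5 genes in place of 4). That scale was tried first, and the other was taken so that printed values and separation share 1 scale.

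The 10 genes, the gene lists and the tests were chosen with earlier results of these data known. The 10 were always named. Genes of other lists were named where called, not overlapping and at a mean of at least 1 CPM, at most 25 per comparison, the largest changes first. Some genes that this rule includes are counted but not reported here by name. DUSP1, FOS, RPS6KA2, COL1A1 and COL1A2 fall outside that rule and were named after their values were seen. Alternatives were DESeq2 1.42.0, limma 3.58.1 on log2(TPM + 0.5) and log2(TPM + 0.1), other filters, thresholds and scalings, the replicate block and leaving out each library. The offsets that remove the length trend were corrected after a first run, because they had shifted the median of all genes.

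The replicate numbers were checked as pairs by correlating deviations from group means. Between SCR and UPF1 knockdown the same-numbered libraries correlated at 0.466, 0.114 and 0.297. Between SCR and DHX34 knockdown the values were -0.066, -0.184 and -0.403, and between the knockdowns -0.177, 0.145 and -0.198, so only a number was shared there. On simulated data made from DHX34 knockdown and SCR with 16677 genes, 67 of 100 genes changed 1.5-fold and 93 of 100 changed 2-fold were called, with 5 false calls. Expected counts carry assignment error as well as counting error.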

Additional observations from a re-analysis of the deposited data

Results flagged for a closer look

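Both knockdowns can be set against each other by a direct fit of UPF1 knockdown against DHX34 knockdown, and the genes below, of the 10-gene set and the other lists, passed there (edgeR adjusted p of at most 0.005). Values are log2 fold changes, UPF1 knockdown minus DHX34 knockdown. Among the feedback genes these were EGR1 (-0.75), DUSP5 (-0.57) and SPRY4 (-0.45), and among their relatives DUSP8 (0.77) and DUSP9 (-0.35), which were close to the limit: DUSP8 lost its call on leaving out any library and DUSP9 on leaving out any but DHX34 knockdown replicate 3, and both with length-scaled counts (edgeR adjusted p = 0.00848 and 0.0221). In the cascade HRAS (0.41), GAB2 (0.43), SOS2 (0.26) and PTPN11 (0.19) were higher in UPF1 knockdown, and RPS6KA3 (-0.52) and RPS6KA1 (-0.30) were lower. SOS2 lost its call on leaving out any library, PTPN11 without DHX34 knockdown replicate 1 or 2 or UPF1 knockdown replicate 1 or 3, and RPS6KA3 without DHX34 knockdown replicate 2 or UPF1 knockdown replicate 1 or 3. With length-scaled counts the calls of HRAS, GAB2, SOS2, PTPN11 and RPS6KA1 were lost (edgeR adjusted p = 0.00502, 0.00554, 0.132, 0.00638 and 0.0417). Of the other ERK-inducible genes ATF3 (1.32), KLF6 (0.75), ETV5 (0.70) and JUN (0.31) were higher, and JUNB (-0.40), SPHK1 (-0.27) and ETV4 (-0.19) were lower. Of the megakaryocytic genes THBS1 (-3.50), ITGA2B (-1.81), ITGB3 (-1.64) and TUBB1 (-0.79) were lower and GP1BB (0.21) was higher. ETV4 lost its call on leaving out any library but DHX34 knockdown replicate 3, and GP1BB on leaving out any but UPF1 knockdown replicate 3. With length-scaled counts ETV4, GP1BB and ITGB3 were not called (edgeR adjusted p = 0.0268, 0.00774 and 0.0199).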

How the results depend on the processing

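Over all alternatives, 398 log2 fold changes of the 10 genes kept their direction and side of the limit, 14 newly passed it, 15 lost it and 17 changed sign. In DHX34 knockdown against SCR, where 0 genes were called, DESeq2, no filter on low counts, a limit of 0.05 and one fit of all 9 libraries each called 2, and removing the length trend or adding the replicate block called 1 (EGR1), although the replicate numbers of SCR and DHX34 knockdown did not pair. In UPF1 knockdown against SCR and in the direct comparison, limma on log2(TPM + 0.5) and on log2(TPM + 0.1) called 1 in place of 3, length-scaled counts called 2, and no filter and a limit of 0.05 called 4. The replicate block called 3 in UPF1 knockdown against SCR and 2 in the direct comparison. Leaving out each library called 0 to 0, 3 to 3 and 2 to 3. The cause of these changes was not tested. Of the 10 genes, those whose sign changed were not called. Among the other named genes, the UPF1 calls of RPS6KA2 with length-scaled counts (0.0845) and of ERF in limma at + 0.5 and + 0.1 (0.0237 and 0.0239) changed sign. Without the length trend, SPRY4 was at -0.0809 and PHLDA1 at -0.11 in DHX34 knockdown. On the limma scales at + 0.5 and + 0.1, SPRED1 was at 0.054 and 0.0568 and SPRED2 at 0.0706 and 0.0721 in DHX34 knockdown, and SPRY2 was at 0.10 and 0.11, SPRED1 at 0.18 and 0.19 and SPRED2 at 0.13 and 0.13 in UPF1 knockdown. Leaving out libraries gave ranges of -0.50 to 0.44 for PHLDA1 in DHX34 knockdown, and of -0.0165 to 2.17 for DUSP4 and -0.0561 to 0.046 for SPRED1 in UPF1 knockdown. Over all genes, the share called was 10.4% in DHX34 knockdown (4.29% with length-scaled counts, 17.8% with DESeq2, 5.92% with the replicate block and 4.48% to 10.3% on leaving out a library), 25.3% in UPF1 knockdown (16.0% with length-scaled counts) and 17.4% between the knockdowns (9.51% with length-scaled counts). Called genes of the other lists changed in number by over 1.5 times in 90 cases and by less in 165. DUSP4 and DUSP6 are limited by depth.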

Other observations

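Among markers of other cells, COL1A1, a fibrillar collagen gene, stood at 0.600, 0.741 and 0.763 CPM in SCR and at 5.41, 4.52 and 4.52 CPM in DHX34 knockdown (log2 fold change 2.78, edgeR adjusted p = 2.26e-06). COL1A2, which encodes its partner chain, was at -0.58 (edgeR adjusted p = 0.00744). In UPF1 knockdown both were not called. The summed level of the macrophage, lymphocyte and fibroblast markers was 3.74 to 4.55 TPM in SCR, 5.23 to 6.13 TPM in DHX34 knockdown and 3.27 to 3.72 TPM in UPF1 knockdown.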
